A study of Oryza sativa Indica Group with 6 samples.

Results

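Phenylalanine ammonia-lyase (PAL) genes of rice were examined in young panicles of a shattering line and of its nonshattering mutant. The family was taken as a fixed list of 9 loci from the rice annotation, chosen by enzyme and not by expression: LOC_Os02g41630, LOC_Os02g41650, LOC_Os02g41670, and LOC_Os02g41680 on chromosome 2, LOC_Os04g43760 and LOC_Os04g43800 on chromosome 4, LOC_Os05g35290 on chromosome 5, LOC_Os11g48110 on chromosome 11, and LOC_Os12g33610 on chromosome 12. Earlier results of these data were known when this list was made. All 9 were among the 55982 loci with 1 row in every sample. The wild type was YIL100, an introgression line that carries *Oryza rufipogon* segments in the *indica* variety Teqing, and *ssh1* (labelled SSH1-/-) was a nonshattering mutant found after EMS treatment of YIL100, so that both groups share the introgressed background. The mutant is a single EMS-derived line with a C-to-A change within an intron of *SNB*, an APETALA2-like transcription factor gene. RNA came from panicles of 0 to 4 cm of field-grown plants, with 3 replicates per genotype and 5 plants in each replicate, giving 6 samples. The deposited values are FPKM, the fragments assigned to a gene, divided by the length of its exons and by the size of the library. This allows for gene length and library size, but differences in scale between libraries can remain, and other scalings are given below.

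PAL removes ammonia from phenylalanine and releases trans-cinnamic acid, the step by which carbon leaves amino acid metabolism for the phenylpropanoids. Cinnamate 4-hydroxylase (C4H) and 4-coumarate:CoA ligase (4CL) turn this product into p-coumaroyl-CoA, from which lignin, wall-bound hydroxycinnamates, and flavonoids are made. Plants keep several PAL genes, often as tandem copies, and PAL transcription is known to respond to wounding, pathogens, and light as well as to the lignification of vascular tissue, and some PAL enzymes of grasses also accept tyrosine.

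The libraries were checked before the PAL values were read. *SNB* (LOC_Os07g13170) was at 20.9, 16.9, and 18.03 FPKM in wild-type replicates 1, 2, and 3 and at 7.97, 7.44, and 8.86 FPKM in *ssh1* replicates 1, 2, and 3. It was lower in *ssh1* (log2 fold change -1.11, limma adjusted p = 0.000725). The labels give the genotype and no direction for this RNA. The study reported *SNB* as lower by RNA-seq. By RT-qPCR it was similar with primers upstream of the mutation and lower with primers spanning the mutated intron, whose splicing the study reported as altered. In situ hybridization and an immunoblot of the protein also gave lower levels in *ssh1*. Of 10 floral and inflorescence genes used as markers of young panicles, 9 exceeded 1 FPKM in at least 1 sample, and their summed level was 796 to 878 FPKM in the wild type and 754 to 860 FPKM in *ssh1*. Pearson's correlation of log2(FPKM + 1) across the tested genes, which are not independent, was 0.977 to 0.981 among wild-type replicates and 0.948 to 0.959 among *ssh1* replicates. The median log2 fold change of all tested genes was -0.14, and the changes of PAL genes are to be read relative to that shift. How many reads each library held is not given in the sources used here. The spacing of values below 0.3 FPKM placed the relative depth of the libraries, on the log2 scale, between -0.24 in *ssh1* replicate 1 and 0.07 in *ssh1* replicate 3, against wild-type replicate 1.

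In the wild type, the PAL transcripts came almost wholly from 3 genes. LOC_Os02g41630 was the highest in every sample, LOC_Os04g43760 was second in every wild-type replicate, and LOC_Os02g41650 was the third. LOC_Os02g41680 came next at 0.588 ± 0.0871 FPKM (SD, n = 3). LOC_Os02g41670, LOC_Os05g35290, and LOC_Os04g43800 averaged 0.145, 0.126, and 0.0768 FPKM in the wild type, and their replicates overlapped, so that no order among them can be given. In *ssh1*, LOC_Os02g41650 moved ahead of LOC_Os04g43760, and the order of the first 7 genes was the same in all 3 mutant replicates, with LOC_Os05g35290 in the fifth place, LOC_Os02g41670 in the sixth, and LOC_Os04g43800 in the seventh.

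**Figure D1:**
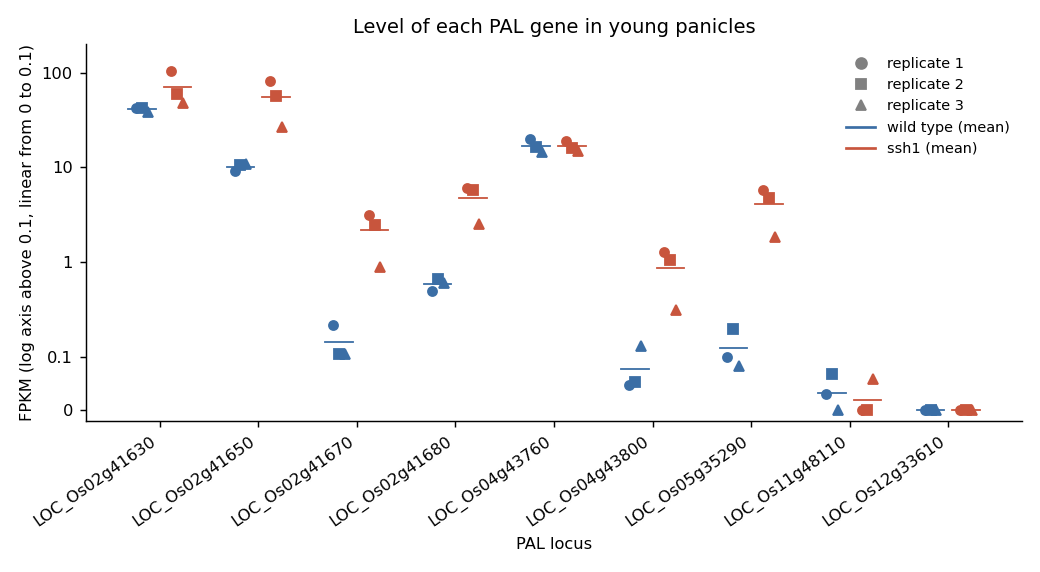
FPKM of the 9 PAL loci in each of the 3 wild-type (blue) and 3 *ssh1* (red) replicates, on an axis that is logarithmic above 0.1 FPKM and linear below it; lines mark group means. The *ssh1* points lie above all wild-type points in 6 loci, overlap with them in LOC_Os04g43760 and LOC_Os11g48110, and are at 0 in LOC_Os12g33610.

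LOC_Os02g41630, the main PAL gene of these panicles, was at 41.9, 42.5, and 38.8 FPKM in wild-type replicates 1 to 3 and at 104.7, 60.1, and 47.6 FPKM in *ssh1* replicates 1 to 3. Every mutant replicate was above every wild-type replicate, but replicate 3 only narrowly so. Its log2 fold change on the log2(FPKM + 1) scale was 0.69 (standard error 0.27, limma adjusted p = 0.0818), with a 95% interval from 0.03 to 1.36, and it was not called. Without *ssh1* replicate 1 the log2 fold change was 0.38.

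Separated from LOC_Os02g41630 in the numbering only by LOC_Os02g41640, which was at 0 FPKM in all 6 samples, LOC_Os02g41650 belongs to the same cluster. It was at 9.24, 10.5, and 10.8 FPKM in wild-type replicates 1 to 3 and at 82.1, 56.6, and 26.5 FPKM in *ssh1* replicates 1 to 3, so that the lowest mutant value was still well clear of the highest wild-type value. The group means were 10.2 ± 0.830 and 55.1 ± 27.9 FPKM (SD, n = 3 each), a ratio of 5.40. The log2 fold change was 2.19 (standard error 0.38, limma adjusted p = 0.0057), with a 95% interval from 1.26 to 3.12. The ratio of LOC_Os02g41650 to LOC_Os02g41630, which no scaling of a library can alter, was 0.221 to 0.278 in the wild type and 0.785, 0.941, and 0.555 in *ssh1* replicates 1, 2, and 3, with no overlap.

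The other members of the chromosome 2 cluster were scarce in the wild type. LOC_Os02g41680 was at 0.494, 0.666, and 0.605 FPKM in wild-type replicates 1 to 3 and at 6.002, 5.73, and 2.51 FPKM in *ssh1* replicates 1 to 3. LOC_Os02g41670 was at 0.218, 0.109, and 0.107 FPKM in the wild type and at 3.19, 2.47, and 0.904 FPKM in the mutant. In both genes the mutant replicates were all higher than the wild-type replicates, and replicate 3 was the lowest of the mutant. The ratio of the group means was 8.07 for LOC_Os02g41680 and 15.1 for LOC_Os02g41670, and the log2 fold changes were 1.79 (standard error 0.28, limma adjusted p = 0.00381) and 1.40 (standard error 0.30, limma adjusted p = 0.0123). Because 1 FPKM was added before taking logarithms, these understate the change of scarce transcripts, and with 0.1 FPKM added they were 2.73 and 3.09. Both genes passed the filter on low values only through their level in *ssh1*. How the mapping split reads between similar PAL copies is not stated, so that the separate values of close paralogs are uncertain.

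Outside chromosome 2, LOC_Os05g35290 changed most in proportion among the PAL genes with a value above 0 in every sample. It was at 0.0998, 0.196, and 0.0833 FPKM in wild-type replicates 1 to 3 and at 5.77, 4.75, and 1.84 FPKM in *ssh1* replicates 1 to 3, a ratio of group means of 32.6 and a log2 fold change of 2.09 (standard error 0.33, limma adjusted p = 0.00389). It too passed the filter only through the mutant. The wild-type level rests on few fragments whose number is unknown, and the size of this ratio is correspondingly uncertain. With 0.1 FPKM added in place of 1, its log2 fold change was 4.10.

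The pair on chromosome 4 behaved unequally. LOC_Os04g43760, the second PAL gene of the wild type, was at 20.0, 16.5, and 14.5 FPKM in wild-type replicates 1 to 3 and at 19.2, 16.1, and 14.9 FPKM in *ssh1* replicates 1 to 3. The groups overlapped fully. Its log2 fold change was -0.02 (limma adjusted p = 0.93), with a 95% interval from -0.37 to 0.33, and it was 0.11 after median-of-ratios scaling. A fall or rise by 2-fold lies outside that interval. LOC_Os04g43800 was at 0.0470, 0.0528, and 0.131 FPKM in the wild type and at 1.27, 1.05, and 0.316 FPKM in *ssh1*, a ratio of group means of 11.5. Its mean over the 6 samples, 0.478 FPKM, left it under the filter of 1 FPKM, and in a fit without the filter its log2 fold change was 0.77 (standard error 0.24, limma adjusted p = 0.158).

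The remaining loci were at or near 0. LOC_Os11g48110 was at 0.0305 and 0.0686 FPKM in wild-type replicates 1 and 2, at 0.0585 FPKM in *ssh1* replicate 3, and listed at 0 in the other 3 samples. LOC_Os12g33610 was listed at 0 in all 6. Neither was tested, and no fold is given for them.

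The study required a 2-fold difference together with an adjusted p under 0.001. It applied these limits to Cuffdiff results and reported lignin synthesis genes as higher in *ssh1*. With the same limits limma called 0 of the 6 PAL genes tested. Of all 18537 tested genes limma called 947, or 5.11%, with 3.19% higher and 1.92% lower in *ssh1*. These are fewer genes than the study reported. The 0 therefore holds for limma on FPKM and does not mean that the study's test called no PAL gene. With the same fold and an unadjusted p under 0.05, 4 PAL genes passed. The share of all tested genes that did so was not computed, but it cannot be below the 13% called at the adjusted limit. With an adjusted p under 0.05, 4 passed as well: LOC_Os02g41650, LOC_Os02g41670, LOC_Os02g41680, and LOC_Os05g35290, all higher in *ssh1*. At this relaxed limit, 13% of all tested genes were called, 7.07% higher and 5.95% lower. Of these 4 genes, 3 had passed the filter only through the mutant and so had to differ. When the filter was dropped, LOC_Os02g41650 and LOC_Os02g41670 missed this limit (limma adjusted p = 0.0523 and 0.0835). Replicate 3 of *ssh1* had the lowest value of the mutant in all 4 genes. In the fit without it, 3 of them (LOC_Os02g41650, LOC_Os02g41680, and LOC_Os05g35290) reached an adjusted p below 0.001 in limma, from 0.000554 to 0.000604. Leaving out the lowest mutant replicate favours such calls, and the share of all tested genes called in that fit is not given here. In 6 of the 9 loci every mutant replicate exceeded every wild-type replicate, 5 of them tested, and this was so in 21.7% of all tested genes. With 3 replicates against 3, a two-sided exact permutation test cannot give a p below 0.1, the value it gave for each of these 6 loci.

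Summed over the 9 loci, PAL transcripts stood at 71.996, 70.6, and 65.0 FPKM in wild-type replicates 1 to 3 and at 222.2, 146.8, and 94.6 FPKM in *ssh1* replicates 1 to 3. The mutant sums were all higher, but unequally so. The means were 69.2 ± 3.71 and 154.5 ± 64.1 FPKM (SD, n = 3 each), a ratio of 2.23 that fell to 1.74 without *ssh1* replicate 1 and was 2.67 without *ssh1* replicate 3. Of the increase of 85.3 FPKM in the mean, 52.6% lay in LOC_Os02g41650, 34.9% in LOC_Os02g41630, and 12.9% in the 4 scarce genes LOC_Os02g41670, LOC_Os02g41680, LOC_Os04g43800, and LOC_Os05g35290. These 4 were grouped for being under 1 FPKM in every wild-type replicate and rising in *ssh1*. Their positive part of the increase follows from that choice. Being a sum over loci chosen with earlier results known, the family sum is given without a test. In whole panicles, a change in the number of cells that express a gene and a change in its RNA per cell cannot be told apart.

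The make-up of the sum differed between the genotypes. LOC_Os02g41650 held 12.8%, 14.9%, and 16.6% of it in wild-type replicates 1 to 3 and 37.0%, 38.5%, and 28.0% in *ssh1* replicates 1 to 3, a difference of 19.7 percentage points without overlap (two-sided exact permutation p = 0.1, which is as low as this design allows). LOC_Os02g41630 held 59.4% ± 1.06 of the sum in the wild type and 46.1% ± 4.77 in *ssh1* (SD, n = 3 each), remaining the first gene of the family even though its share was lower. The share of LOC_Os04g43760 was 24.5% ± 2.92 in the wild type and 11.8% ± 3.61 in *ssh1* (SD, n = 3 each), with its own FPKM overlapping between the genotypes. The 4 scarce genes together held 1.19% to 1.45% of the sum in the wild type and 5.89% to 9.53% in *ssh1*. They had been grouped for rising in the mutant, so that this difference was built into the choice. Every share except those of LOC_Os11g48110 and LOC_Os12g33610 gave p = 0.1 in the two-sided exact permutation test, or 0.114 after Benjamini-Hochberg adjustment. The shares of a sample add to a fixed total, so that these results are not independent. Shares within a sample do not depend on how that library was scaled.

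**Figure D2:**
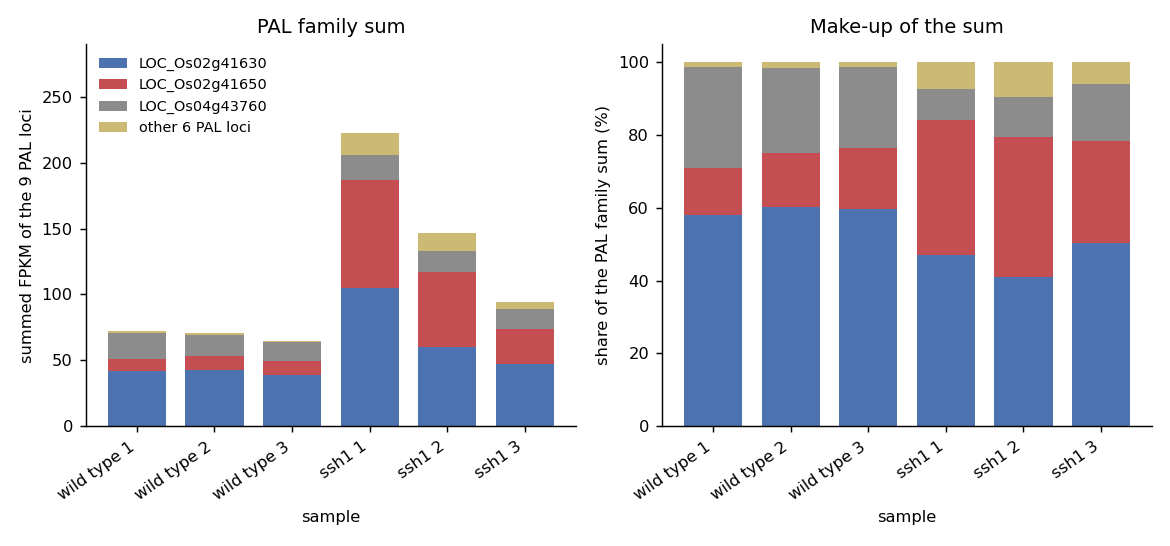
Left, FPKM summed over the 9 PAL loci in each sample, and right, the percentage of that sum held by LOC_Os02g41630 (blue), LOC_Os02g41650 (red), LOC_Os04g43760 (grey), and the other 6 loci (yellow). The sum is 65.0 to 71.996 FPKM in the wild type and 94.6 to 222.2 FPKM in *ssh1*, and the red share is 12.8% to 16.6% and 28.0% to 38.5%.

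The mutant replicates differed among themselves in the same way in all 7 PAL loci that were detected in every sample. Replicate 1 was the highest and replicate 3 the lowest in each of them, an order that 14.6% of all tested genes had, and 36.2% of the genes called higher at an adjusted p below 0.05. The wild-type replicates showed no common order across these loci. Relative to the wild-type mean, LOC_Os05g35290 was 45.6-fold, 37.6-fold, and 14.6-fold higher in *ssh1* replicates 1, 2, and 3, and LOC_Os02g41650 was 8.06-fold, 5.55-fold, and 2.60-fold higher. LOC_Os02g41630 was 2.55-fold, 1.47-fold, and 1.16-fold higher. Between *ssh1* replicates 1 and 3 the level differed 2.20-fold to 4.04-fold in the 6 loci that were higher in the mutant, and 1.29-fold in LOC_Os04g43760. The SD of the mutant replicates was 40.9% to 57.0% of the mean in these 6 loci and 13.3% in LOC_Os04g43760.

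**Figure D3:**
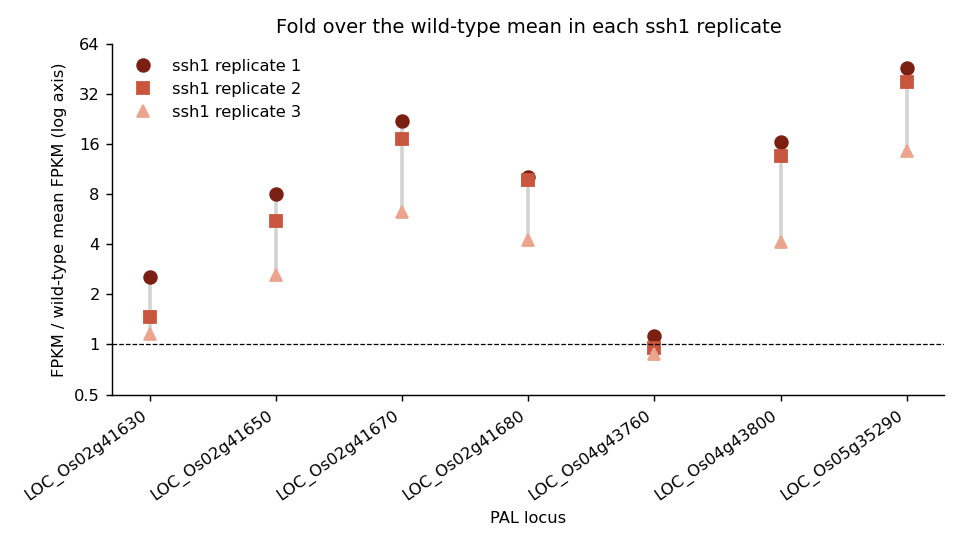
FPKM in *ssh1* replicates 1, 2, and 3 divided by the wild-type mean, on a logarithmic axis, for the 7 PAL loci with values above 0 in all samples; the dashed line marks the wild-type mean. Replicate 1 is the highest and replicate 3 the lowest in each locus, from 45.6 and 14.6 in LOC_Os05g35290 to 1.13 and 0.876 in LOC_Os04g43760.

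Few loci near the PAL clusters were tested. Of all tested genes, 13% were called in either direction at the relaxed limit, and the counts here are too small to be set apart from that share. Within 100 locus numbers on either side of the chromosome 2 cluster, 21 further loci were listed, of which 7 were tested, and 1 of these (LOC_Os02g41540) was called higher at a fold of at least 2 with an adjusted p below 0.05 and none lower. Their median log2 fold change was 0.09. Around the chromosome 4 pair, 9 of 23 loci were tested, of which 1 (LOC_Os04g43680) was called higher and 1 (LOC_Os04g43840) lower, with a median of 0.02. LOC_Os04g43770, which lies between LOC_Os04g43760 and LOC_Os04g43800 in the numbering, was at 3.69 to 5.12 FPKM in the wild type and at 3.26 to 4.99 FPKM in *ssh1*. These surroundings were examined after the PAL values had been seen.

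The steps that follow PAL were described from lists made by enzyme, with the class of each locus taken from general knowledge of the rice annotation. Of 37 loci listed for C4H, 4CL, HCT, C3H, CCoAOMT, F5H, CCR, and CAD, 22 were tested. At the study's thresholds 2 of them were higher in *ssh1*, LOC_Os02g08100 of the 4CL list and *CCR20* (LOC_Os08g34280), and 0 were lower. Of all tested genes, 3.19% were higher and 1.92% lower at these thresholds. Both calls were lost without any 1 of the wild-type replicates, and 1 gene passed without *ssh1* replicate 1 or without *ssh1* replicate 2. At the relaxed limit, 6 were higher and 1, LOC_Os09g23540 of the CAD list, was lower. The 6 were the 2 above with LOC_Os08g34790 of the 4CL list, *COA20* (LOC_Os08g38900), *CCoAOMT* (LOC_Os08g38910), and *CAD2/gh2* (LOC_Os02g09490). Of all tested genes, 7.07% were higher and 5.95% lower at this limit. LOC_Os08g34790 was at 0.105 to 0.159 FPKM in the wild type and 3.03 to 9.93 FPKM in *ssh1*. It had passed the filter only through the mutant and so had to differ, the only 1 of the 22 of which this was true. Over the 22, against -0.14 over all tested genes, the median log2 fold change was 0.59. It was 0.83 for CCR (3 tested), which commits the activated acids to monolignols, and -0.40 for CAD (8 tested), which makes the final alcohols. In 5 of the 8 tested CAD genes all mutant replicates were below all wild-type replicates, a pattern that 38% of all tested genes showed, and in 1 of the 8, *CAD2/gh2*, they were above.

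C4H, which takes up the product of PAL, was represented by 1 gene above the filter. *C4H2* (LOC_Os05g25640) was at 3.78, 5.36, and 6.26 FPKM in wild-type replicates 1 to 3 and at 62.2, 17.99, and 6.58 FPKM in *ssh1* replicates 1 to 3. The groups were separated only narrowly at replicate 3, and its log2 fold change was 1.79 (standard error 0.73, limma adjusted p = 0.0896). Summed over the lists, the level relative to the wild-type mean in *ssh1* replicates 1, 2, and 3 was 3.21-fold, 2.12-fold, and 1.37-fold for PAL, 12.3-fold, 3.73-fold, and 1.32-fold for C4H, and 4.16-fold, 3.13-fold, and 2.17-fold for 4CL. The CCR sum was 3.80-fold, 2.997-fold, and 2.89-fold the wild-type mean, so that it varied less between the mutant replicates. The sums for HCT, C3H, and CCoAOMT were also highest in replicate 1 and lowest in replicate 3 of the mutant. The CAD sum did not, at 1.44-fold, 0.947-fold, and 0.9497-fold the wild-type mean, and so lay below that mean in replicates 2 and 3.

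The genes with the highest mean over all 6 samples in the remaining classes gave a mixed picture, and in CCoAOMT and CAD this mean was led by genes that were higher in the mutant. LOC_Os08g38900 (*COA20*), in the CCoAOMT list of methyltransferases that act on caffeoyl-CoA, was at 33.4 to 45.7 FPKM in the wild type and at 229, 99.9, and 64.8 FPKM in *ssh1* replicates 1, 2, and 3, with limma adjusted p = 0.0339. In the wild type alone the highest of this list was LOC_Os06g06980, at 53.8 to 57.1 FPKM there and 46.4 to 59.8 FPKM in *ssh1*, with overlapping groups (log2 fold change -0.13, limma adjusted p = 0.353). *CAD2/gh2* (LOC_Os02g09490) averaged 8.88 ± 1.12 FPKM in the wild type and 42.3 ± 20.5 FPKM in *ssh1* (SD, n = 3 each), with limma adjusted p = 0.00342. The highest CAD gene of the wild type was LOC_Os10g29470, at 22.5 to 30.1 FPKM there and 19.4 to 22.2 FPKM in *ssh1*, lower in every mutant replicate but not called (log2 fold change -0.34, limma adjusted p = 0.0622). LOC_Os04g42250 in the HCT list had a log2 fold change of 0.37 and LOC_Os05g41440 in the C3H list of 0.70, both short of 2-fold. Their limma adjusted p was 0.0068 and 0.0111. In both, every mutant replicate was above every wild-type replicate, a pattern that 21.7% of all tested genes showed. The 3 loci listed for F5H were below 1 FPKM in every sample, LOC_Os10g36848 among them at no more than 0.0576 FPKM.

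**Figure D4:**
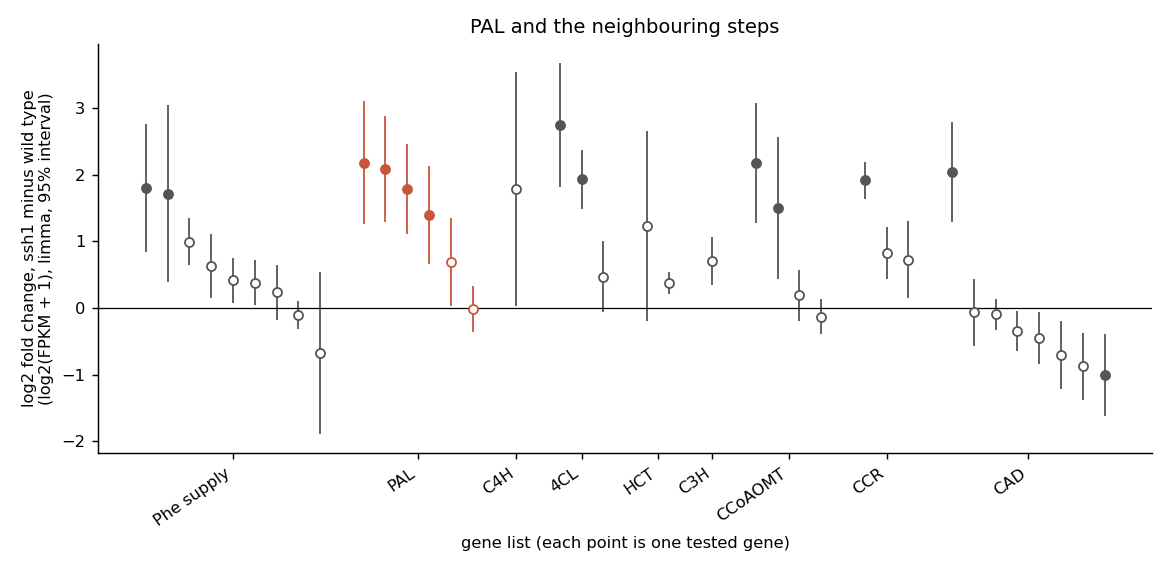
Difference in log2(FPKM + 1), *ssh1* minus wild type, with its 95% interval from limma, for each tested gene of the phenylalanine supply list, of PAL (red), and of the later enzyme lists; filled points passed the relaxed limit of 0.05 with a 2-fold difference. Filled points number 4 of 6 in PAL and 7 of 22 in the later lists, and 1 of those 7, in CAD, lies below 0. Of all tested genes, 13% passed this limit.

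Phenylalanine itself is made through the shikimate pathway. Of 11 loci listed for this supply, 9 were tested and 0 were called at the study's thresholds, while 2 (LOC_Os03g27230 and LOC_Os04g33390) were higher at the relaxed limit. Of all tested genes, 3.19% were higher at the study's thresholds and 7.07% at the relaxed limit. The gene with the highest mean over all samples, LOC_Os07g42960, was at 77.0 to 80.6 FPKM in the wild type and at 185, 171, and 126 FPKM in *ssh1* replicates 1, 2, and 3, and its log2 fold change of 0.99 was just under 2-fold (limma adjusted p = 0.00301). Replicate 1 was the highest and replicate 3 the lowest of the mutant in 7 of the 9, an order that 14.6% of all tested genes had. In the flavonoid branch, which also draws on the product of PAL, 1 of 6 loci was tested (LOC_Os03g60509, log2 fold change -0.92, limma adjusted p = 0.138), and the other 5 were below 1 FPKM in every sample.

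Levels of other gene groups are given beside these values, with a call meaning a fold of at least 2. Of 4 genes of secondary walls, 1 was tested and 0 were called at either limit, although the tested LOC_Os01g54620 was lower by less than 2-fold (log2 fold change -0.40, limma adjusted p = 0.0168). Their sum was 6.73 to 7.72 FPKM in the wild type and 4.94 to 7.33 FPKM in *ssh1*. Of 5 defence genes, 2 were tested and 0 were called at either limit, although LOC_Os01g09800 was lower in every mutant replicate by less than 2-fold (log2 fold change -0.39, limma adjusted p = 0.0192). Their sum was 9.76 to 18.9 FPKM in the wild type and 8.44 to 15.3 FPKM in *ssh1*. Of 4 leaf markers, all were tested and 0 were called, but LOC_Os12g17600 and LOC_Os12g19470 were higher in every mutant replicate, with log2 fold changes of 0.83 and 0.76 (limma adjusted p = 0.012 and 0.00876). Their sum was 189 to 288 FPKM in the wild type and 510, 210, and 347 FPKM in *ssh1* replicates 1, 2, and 3, an order other than that of the PAL genes. Of 4 tapetum markers, LOC_Os03g07250 was tested and was lower in *ssh1* at an adjusted p below 0.05, and the sum was 1.94 to 4.31 FPKM in the wild type and 0.526 to 0.715 FPKM in *ssh1*. Of the 8 tested panicle markers, LOC_Os03g54160 was called higher at the study's thresholds (log2 fold change 1.12, limma adjusted p = 0.000918), and LOC_Os03g11600 was lower at an adjusted p below 0.05 (log2 fold change -1.30). By less than 2-fold, LOC_Os03g11614 and LOC_Os06g49840 were lower (log2 fold change -0.60 and -0.50, limma adjusted p = 0.0279 and 0.00384). LOC_Os03g54170 was higher by less than 2-fold (log2 fold change 0.39, limma adjusted p = 0.0121). All mutant replicates were below all wild-type replicates in 4 of the 8 and above them in 2, patterns that 38% and 21.7% of all tested genes showed. The part of cell composition or developmental stage in the PAL values was not tested.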

How the data were processed

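Total RNA of young panicles was sequenced as paired-end libraries on an Illumina instrument. The authors mapped the reads with TopHat2 at default settings to the Nipponbare reference (IRGSP-1.0, MSU7 gene models) and deposited FPKM from Cuffdiff, 1 value per gene and replicate. Versions and read filters are not given in the sources used here. After 4 repeated locus IDs were left out, the 18537 genes averaging 1 FPKM or more were transformed to log2(FPKM + 1) and fitted in R 4.3.3 by limma 3.58.1 (mean-variance trend, genotype only, Benjamini-Hochberg adjustment over all genes), a calculation first tested on simulated data. The simulated data had the same spread in both genotypes, whereas in 69.3% of tested genes the SD was larger in *ssh1*. That check therefore did not cover unequal spread. Cuffdiff needs reads and was not rerun. FPKM keeps no read number, so that no interval for counting error is given. The samples are biological replicates of pooled plants, and p-values measure the spread between them. Single values and shares of the family sum were compared by two-sided exact permutation tests. Figures were drawn with matplotlib 3.10.9.

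The members and lists were chosen with earlier results of these data known. Named were all PAL loci, *SNB*, the gene of each enzyme list with the highest mean over the 6 samples, and list members past both thresholds. Genes inside and around the clusters, the wild-type leaders of 2 lists, and list or marker genes with an adjusted p below 0.05 alone were named after their values had been seen. Alternatives were a pseudocount of 0.1, no filter, a minimum mean of 5 FPKM, quantile normalization, scaling by median of ratios, a block for the replicate number, omission of 1 replicate at a time, and a limit of 0.05 on the adjusted p. The gene table used matched no locus ID, so that coordinates and sequences are not analysed here. An enzyme class of the pathway is not reported here.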

Additional observations from a re-analysis of the deposited data

How the results depend on the processing

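Of the PAL genes, 0 passed the study's thresholds under every alternative except an adjusted p below 0.05 (4 genes) and the fits without 1 replicate (0 to 3). At the relaxed limit, whose own alternatives were added after the data were seen, the 4 genes became 2 without the filter on low values and 1 at a minimum mean of 5 FPKM, which leaves 3 PAL genes to test. They were 3 to 4 without 1 replicate. For the fits without 1 replicate, the share of all tested genes called is not given here. For later lignin genes, the 2 became 0 without the filter, 6 at an adjusted p below 0.05, 0 with the replicate block, and 0 to 2 without 1 replicate. The 6 at the relaxed limit stayed between 5 and 7. LOC_Os04g43760 had no stable direction: its log2 fold change turned from -0.02 to 0.11 with median-of-ratios scaling, to 0.0058 with quantile normalization, and ranged from -0.12 to 0.10 without 1 replicate. The other 5 tested PAL genes stayed positive in all fits run. The cause was not tested.

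Same-numbered samples of the genotypes share only a number, and the correlations of their deviations were -0.103, -0.0732, and -0.169, with 0 of 6 samples matching best with their own number. With the number as a block, 0 PAL genes passed the study's thresholds and 4 the relaxed limit, as without it, while the calls over all genes fell from 947 to 0, with a smallest adjusted p of 0.00201 in limma. The ratio of PAL sums ranged from 1.74 to 2.67 without 1 replicate, and was 2.46 with median-of-ratios scaling. The share of LOC_Os02g41650 differed by 17.7 to 23.0 percentage points without 1 replicate, and by 21.2 without LOC_Os02g41670 and LOC_Os02g41680. Without read numbers, the error of values below 1 FPKM is unknown.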
